A study of Rattus norvegicus with 6 samples.

Results

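Glutathione transferases join the tripeptide glutathione to reactive, mostly electrophilic molecules, and the conjugates are then exported and trimmed to mercapturates. The soluble enzymes are dimers of subunits from the alpha, mu, pi and theta classes, and a separate membrane-bound form sits in the endoplasmic reticulum and the outer mitochondrial membrane. Rat liver is rich in alpha and mu subunits, and many of their genes are known to respond to foreign chemicals through factors such as NRF2 and the nuclear receptor CAR. The genes were taken by name: every non-control probe whose RefSeq symbol, current or older, was Gsta2, Gsta3, Gsta4, Gstm1, Gstm2, Gstm3, Gstm4, Gstp1, Gstt1 or Mgst1. This gave 14 genes with 22 probes, of 15284 named genes and 61657 probes on the array. All 10 symbols were found, and the 4 added genes carried one of them as an older name: Gsta1 (formerly Gsta3), Gsta5 (formerly Gsta2), Gstm5 and Gstm7 (both formerly Gstm3).

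The livers came from male Sprague-Dawley rats of the Crl:CD(SD) stock, 5 weeks old at purchase. In the tBA group 3 rats received tert-butyl alcohol, a solvent and a metabolite of the fuel additive MTBE, at 1000 mg/kg/day, and in the vehicle group 3 rats received the carrier alone. The labels disagree on the carrier, which is purified water in the sample labels and corn oil in the treatment protocol. They also disagree on the length of dosing, which is 28 days in the series description and 9 weeks in the treatment protocol. Total RNA from each liver was hybridised, labelled with Cy3, to 1 Agilent 1-colour array. Levels are given as the log2 processed signal minus the 75th percentile of the same array, so 0 is that percentile and 1 unit is a doubling, and a difference is tBA minus vehicle. Levels of different probes are not set against each other, because probes differ in how brightly they bind. The probes of a gene are numbered from the brightest, and the brightest stands for the gene unless another is named.

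The share of probes well above background ran from 61.5% to 66.9% per array, no spot was saturated, and arrays correlated at 0.989 to 0.991 within groups and 0.984 to 0.988 between them. The 3 vehicle arrays and tBA replicate 1 shared a slide and a scan day, and tBA replicates 2 and 3 were on another slide scanned on another day, so values within the first slide are given where they turn a direction. Hepatocyte markers were bright on all 6 arrays. Over 7 genes, 5 were higher and 2 lower, from −0.36 (Apoa1) to 0.36 (Cps1), with a median difference of 0.026. In Serpina1, at −0.17, every tBA liver lay below every vehicle liver, as in 11.3% of all genes. Albumin (Alb), the marker that differed least, was at 9.59, 9.58 and 9.58 in tBA livers and 9.65, 9.54 and 9.55 in vehicle livers. Of 40 marker genes tested in 11 cell type lists, none passed the adjusted threshold, which 0.0451% of all genes did. An unadjusted p under 0.05 was found for 3 of the 40, against 15.1% of all genes. In these bulk samples, fewer cells of a type and less RNA per cell cannot be told apart.

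No glutathione transferase was found to differ between tBA and vehicle livers, in either direction. All 22 probes were well above background on all 6 arrays and were tested. None passed an adjusted p of 0.05 in limma with Benjamini-Hochberg adjustment over 37647 probes, a threshold that 43 probes, 0.114% of those tested, did pass. When only the 35660 probes above background on all 6 arrays were fitted, as these 22 were, no probe of any gene passed. At an unadjusted p under 0.05 there was 1 of the 22, against 15.8% of all probes. The same probe was the 1 whose groups did not overlap, against 24.7% of all probes. Of the 22 probes, 10 were higher and 12 lower in tBA livers, and 52.7% of all probes were higher. With 3 arrays a group, an exact two-sided permutation test of a single value cannot give a p below 0.1. The limma p-values rest on the spread between these 6 livers only, with slide and scan day in it. For each probe, limma also draws the variance partly from all probes tested.

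Taken by the brightest probe, 6 of the 14 genes were higher and 8 lower, and 50.6% of all genes were higher. Their median difference was −0.010, against 0.0032 over the 11094 genes tested. None of the 14 passed the adjusted threshold in limma (0.0451% of all genes did), none had groups that did not overlap (24.2% of all genes), and none had an unadjusted p under 0.05 (15.1% of all genes). The difference was within 0.25 of 0 for 13 of the 14, and Gstm3 was the exception (with the mean of all probes of a gene, Gsta3 was another, at 0.66). The 95% confidence interval lay inside a 2-fold change either way for 11 of the 14 genes and inside a 1.5-fold change for 9. The 3 genes whose intervals reached past 2-fold were Gsta2, Gstm3 and Gstm5. For these 3 genes a 2-fold difference was not excluded at this number of arrays. Nor was it for Gsta3 by all its probes. Its dimmest probe, left out of these counts, had an interval of 1.15 to 2.29, wholly above a 2-fold change. Within the first slide, tBA replicate 1 against the 3 vehicle arrays, the median difference of the 14 genes was 0.12.

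**Figure D1:**
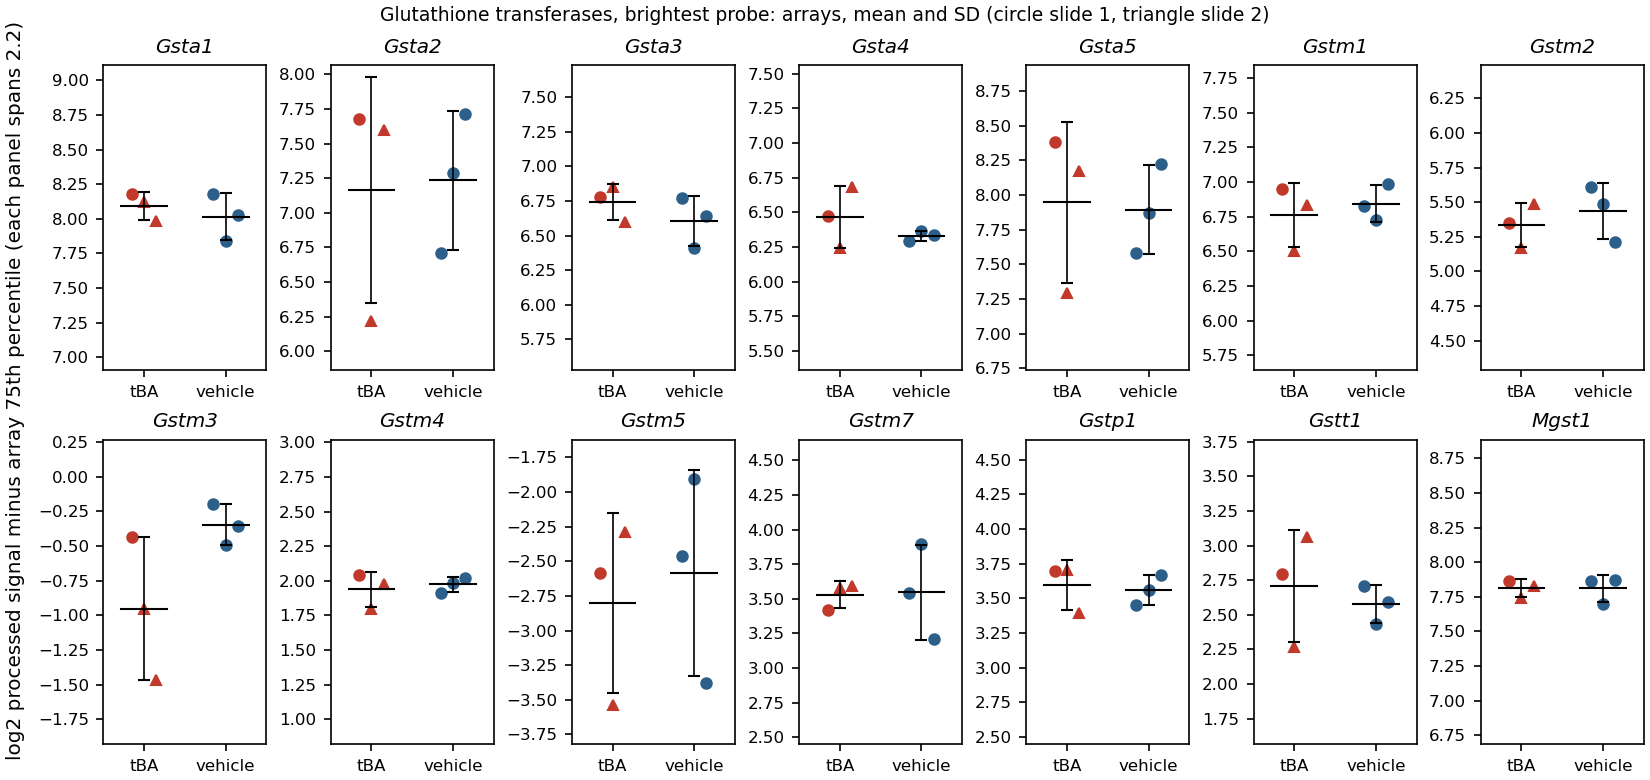
Level of each of the 14 genes on its brightest probe, as log2 processed signal minus the array's 75th percentile, with tBA arrays left of vehicle arrays, 1 point per array, circles for slide 1, triangles for slide 2, and bars for the mean and SD (n = 3 each). Each panel has its own range of levels but the same height in log2 units, so Gsta2, Gsta5 and Gstm5 are seen to spread widely in both groups, while Mgst1, Gsta1 and Gstm4 are tight.

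**Figure D2:**
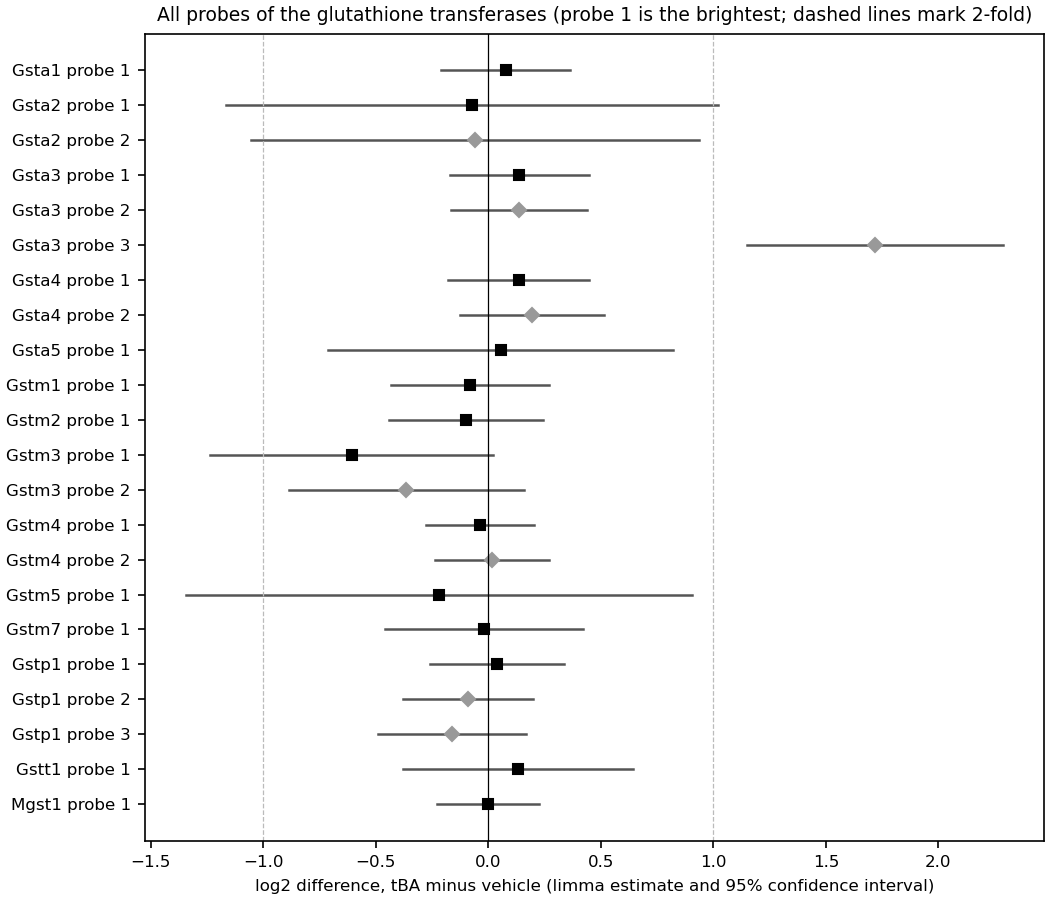
Difference of each of the 22 probes in log2, tBA minus vehicle, with its limma 95% confidence interval (n = 3 arrays each), squares for the brightest probe of a gene and diamonds for the others, and dashed lines at 2-fold. Every interval but that of Gsta3 probe 3 crosses 0.

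The alpha class genes Gsta1 and Gsta3 lie near each other on chromosome 9 and encode the subunits long known in rat as Yc1 and Yc2, which act on organic hydroperoxides. Yc2 is known in rat for detoxifying the epoxide of aflatoxin. Gsta1 had levels of 8.18, 8.12 and 7.98 in tBA livers and 8.18, 7.84 and 8.03 in vehicle livers. These values overlapped, and the difference was 0.077 (SE 0.119, 95% interval −0.21 to 0.37, limma adjusted p = 0.766). Gsta3 on its brightest probe had 6.78, 6.85 and 6.60 in tBA livers and 6.77, 6.41 and 6.64 in vehicle livers, also overlapping. Its difference was 0.14 (SE 0.128, 95% interval −0.17 to 0.45, limma adjusted p = 0.606). Probe 2 of Gsta3, which carries another RefSeq transcript of the gene, gave 0.14 as well (limma adjusted p = 0.602). With the mean of all 3 probes in place of the brightest, the difference of Gsta3 was 0.66 (limma adjusted p = 0.203).

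The third and dimmest Gsta3 probe, A_64_P035291, was singled out after its values were seen, because its difference was unlike that of the other 2. Its levels were 2.73, 2.79 and 2.34 in tBA livers and 1.38, 0.67 and 0.66 in vehicle livers. Every tBA liver lay above every vehicle liver, and the group means were 2.62 ± 0.25 with tBA and 0.90 ± 0.41 with vehicle (SD, n = 3 each). The difference of 1.72, or 3.29-fold (SE 0.234, 95% interval 1.15 to 2.29, unadjusted p = 0.000272), missed the threshold after adjustment, with a limma adjusted p of 0.0959. It was 1.83 for tBA replicate 1 on the slide of the vehicle arrays and 1.66 for the mean of tBA replicates 2 and 3. Over 19 processing alternatives the difference ran from 1.60 to 1.96 and the adjusted p from 0.0509 to 0.420, so it passed in none. This probe carries the same RefSeq transcript as the brightest Gsta3 probe in the probe annotation, and the contrast between the 2 probes was not tested.

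RefSeq gives 2 start windows for Gsta3, and both are printed with that of Gsta1, because 2 Gsta3 probes followed Gsta1 closely from liver to liver and the third did not. Each window runs from 250 bases before to 50 after an annotated start in the RefSeq table of the GRCr8 build, 5′ to 3′ on the strand of the gene. Capitals mark the core of the antioxidant response element, which NRF2 binds, searched as TGACNNNGC on both strands (GCNNNGTCA on the other). Gsta3, first start, chr9:31154739-31155038, plus strand, Gsta3, second start, chr9:31166793-31167092, plus strand, and Gsta1, chr9:31216483-31216782, minus strand, read as follows.
Gsta3 first start: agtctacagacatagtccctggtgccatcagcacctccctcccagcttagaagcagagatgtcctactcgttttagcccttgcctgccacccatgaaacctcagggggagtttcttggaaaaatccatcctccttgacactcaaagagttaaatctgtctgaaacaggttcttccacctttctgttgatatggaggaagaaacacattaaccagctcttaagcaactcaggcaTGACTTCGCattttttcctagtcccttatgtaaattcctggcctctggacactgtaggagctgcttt
Gsta3 second start: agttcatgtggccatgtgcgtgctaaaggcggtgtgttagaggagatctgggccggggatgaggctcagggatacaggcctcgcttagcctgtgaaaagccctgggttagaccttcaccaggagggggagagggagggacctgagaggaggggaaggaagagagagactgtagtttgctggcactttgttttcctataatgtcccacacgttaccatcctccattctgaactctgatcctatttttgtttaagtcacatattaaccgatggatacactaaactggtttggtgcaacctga
Gsta1: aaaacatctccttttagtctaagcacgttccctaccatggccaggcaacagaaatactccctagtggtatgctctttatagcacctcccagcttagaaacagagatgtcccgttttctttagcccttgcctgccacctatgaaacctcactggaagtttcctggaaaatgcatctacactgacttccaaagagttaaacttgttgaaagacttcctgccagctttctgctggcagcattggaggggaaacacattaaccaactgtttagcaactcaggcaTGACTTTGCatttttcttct
The Gsta1 window and the first Gsta3 window share a run of 20 bases, tttagcccttgcctgccacc, the longest of any of the 91 pairs among the windows printed or searched here. The next longest run was 15 bases, and the median was 8. The Gsta1 window and the first Gsta3 window each hold 1 match of the motif, TGACTTTGC in Gsta1 and TGACTTCGC in Gsta3. The Gsta1 match begins at base 281 of its window, after the annotated start, and the Gsta3 match at base 234, before it. The second Gsta3 window holds none. Over the 14 windows found for 13 of the genes (none for Gstt1), 6 windows of 6 genes held the motif: Gsta1, Gsta2, Gsta3, Gstm5, Gstm7 and Gstp1. The share among all 33469 windows of this length was 12.1%. A match is a run of letters and not a shown binding site.

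The alpha genes on chromosome 8, Gsta2, Gsta5 and Gsta4, showed no difference between the groups beyond the spread within them. Gsta2 encodes a Ya-type subunit of the liver protein once called ligandin, which binds bilirubin and haem. Its levels were 7.68, 6.22 and 7.60 in tBA livers and 6.71, 7.29 and 7.71 in vehicle livers. The difference was −0.072 (SE 0.450, 95% interval −1.16 to 1.02, limma adjusted p = 0.950). The highest liver exceeded the lowest 2.74-fold within the tBA group and 2.00-fold within the vehicle group. The within-group SD of 0.68 ranked above 96.6% of all probes tested. The second Gsta2 probe gave −0.058 (limma adjusted p = 0.956), with the same liver, tBA replicate 2, lowest. Within the first slide, where tBA replicate 1 is the tBA array, the differences of the 2 probes were 0.44 and 0.46. Its start window, chr8:88077043-88077342 on the minus strand of GRCr8, is shown because the gene varied most between livers among the bright alpha genes. Its 1 motif match lies on the other strand, near the end of the window.
Gsta2: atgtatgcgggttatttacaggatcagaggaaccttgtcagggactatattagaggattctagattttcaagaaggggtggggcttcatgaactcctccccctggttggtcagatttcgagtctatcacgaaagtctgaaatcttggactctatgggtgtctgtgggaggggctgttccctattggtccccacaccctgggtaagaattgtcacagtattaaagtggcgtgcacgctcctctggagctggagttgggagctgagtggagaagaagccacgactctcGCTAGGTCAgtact

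Gsta5 had levels of 8.39, 7.29 and 8.17 in tBA livers and 7.58, 7.87 and 8.23 in vehicle livers. Its difference was 0.055 (SE 0.316, 95% interval −0.71 to 0.82, limma adjusted p = 0.946). In both Gsta2 and Gsta5, tBA replicate 2 was the lowest of the tBA livers and vehicle replicate 1 the lowest of the vehicle livers. Gsta4, whose enzyme is known for conjugating 4-hydroxynonenal, a product of lipid peroxidation, had 6.48, 6.24 and 6.69 in tBA livers and 6.29, 6.37 and 6.33 in vehicle livers. The tBA livers spanned the vehicle livers, and the difference was 0.14 (SE 0.129, limma adjusted p = 0.616). The second Gsta4 probe gave 0.19 (SE 0.132, limma adjusted p = 0.490).

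**Figure D3:**
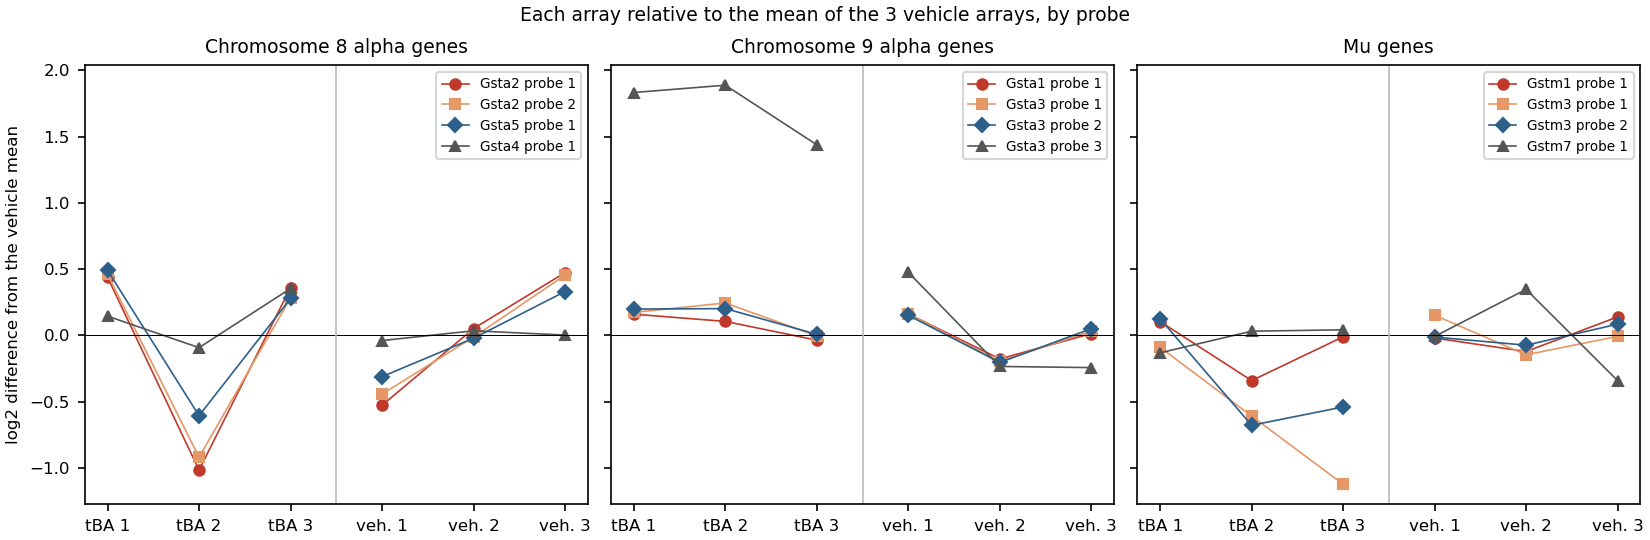
Each array's log2 level relative to the mean of the 3 vehicle arrays for selected probes, with tBA replicates left of vehicle replicates (veh.). Lines only help the eye follow a probe, since replicates have no order. Gsta2 and Gsta5 share a low value in tBA replicate 2, Gsta1 and Gsta3 probes 1 and 2 stay close together, Gsta3 probe 3 is high on all 3 tBA arrays, and Gstm3 is low in tBA replicates 2 and 3.

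The 6 mu class genes, all on chromosome 2, had differences from −0.61 to −0.019 on their brightest probes, and none passed the test. All 6 were below 0 as reported, but the shared sign did not hold under other settings: Gstm4 and Gstm7 were above 0 with median scaling (0.038 and 0.055), Gstm7 with normexp (0.033), and Gstm1, Gstm4 and Gstm5 with slide as a fixed block (0.11, 0.070 and 0.00037). Without tBA replicate 2, Gstm1, Gstm4 and Gstm5 were above 0 too, at 0.048, 0.036 and 0.15. Gstm1 and Gstm2 encode the subunits Yb1 and Yb2, the main mu subunits of rat liver. Gstm1 had 6.95, 6.50 and 6.83 in tBA livers and 6.82, 6.72 and 6.98 in vehicle livers. The groups overlapped, with a difference of −0.082 (SE 0.144, 95% interval −0.43 to 0.27, limma adjusted p = 0.799), and it was 0.11 within the first slide. Gstm2 had 5.35, 5.17 and 5.49 in tBA livers and 5.61, 5.49 and 5.21 in vehicle livers. Its difference was −0.098 (SE 0.142, limma adjusted p = 0.750), again with overlap.

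Gstm3 had the largest difference among the 14 brightest probes. Its levels were −0.43, −0.95 and −1.47 in tBA livers and −0.19, −0.49 and −0.35 in vehicle livers. The livers of tBA replicates 2 and 3 lay below all vehicle livers, and tBA replicate 1 lay among them. The difference of −0.61, or 0.657-fold (SE 0.260, 95% interval −1.24 to 0.023), did not pass, with a limma adjusted p of 0.326. It was −0.089 for tBA replicate 1, on the slide of the vehicle arrays, and −0.86 for the mean of tBA replicates 2 and 3, on the other slide, so slide moved with this result and its part was not tested. The second Gstm3 probe gave −0.36 (SE 0.215, limma adjusted p = 0.436), with 0.13 for tBA replicate 1 and −0.61 for the other two.

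The genes whose 6 array values were most like Gstm3, by the root mean square gap of values centred on their own mean over the 6 arrays, were Ezh2 (0.0723), Rcor2 (0.108) and Spata1 (0.129). Their differences were −0.53, −0.66 and −0.82, and none passed in limma (adjusted p of 0.380, 0.354 and 0.250). For the third Gsta3 probe the same measure named Dusp13b (0.305), Cyp2b2 (0.311) and Bmal1 (0.327), with differences of 1.48, 1.27 and 1.48. Cyp2b2 is a cytochrome P450 known in rat for induction by phenobarbital through CAR, and Bmal1 is a core gene of the circadian clock. None of these 3 passed in limma either (adjusted p of 0.0513, 0.199 and 0.180). The 5 tested Cyp2b2 probes ran from 0.36 to 1.87. Differences near that of the matched probe follow from the matching itself, here and for Gstm3.

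Gstm4 was tight in both groups, at 2.04, 1.80 and 1.98 in tBA livers and 1.91, 1.99 and 2.02 in vehicle livers. Its 2 probes gave −0.035 and 0.018 (limma adjusted p of 0.882 and 0.946), so their signs differed while both were smaller than the spread. Gstm7 had 3.42, 3.58 and 3.59 in tBA livers and 3.54, 3.89 and 3.21 in vehicle livers, a difference of −0.019 (SE 0.182, limma adjusted p = 0.969). Gstm5 lay well below the array's 75th percentile, at −2.58, −3.53 and −2.29 in tBA livers and −2.46, −1.91 and −3.38 in vehicle livers. Both groups spread widely, the within-group SD ranked above 96.9% of all probes, and the difference was −0.22 (SE 0.464, 95% interval −1.34 to 0.91, limma adjusted p = 0.837).

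The pi, theta and microsomal genes did not pass the test either. Gstp1, the placental form, is low in normal rat hepatocytes and known as a marker of preneoplastic liver foci, while bile duct cells carry it. Its levels were 3.70, 3.70 and 3.39 in tBA livers and 3.45, 3.56 and 3.67 in vehicle livers. The difference was 0.037 on the brightest probe (SE 0.123, 95% interval −0.26 to 0.33, limma adjusted p = 0.901) and −0.091 and −0.16 on the other two (limma adjusted p of 0.723 and 0.571). The groups overlapped on each of the 3 probes. Of 6 bile duct markers, 4 were tested and none passed, with a median difference of 0.028. Gstt1, a theta enzyme known for acting on small halogenated compounds such as dichloromethane, had 2.80, 2.27 and 3.06 in tBA livers and 2.70, 2.43 and 2.59 in vehicle livers. The tBA livers again spanned the vehicle livers, with a difference of 0.13 (SE 0.211, limma adjusted p = 0.773).

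Mgst1, the membrane-bound transferase, which also reduces lipid hydroperoxides, had the smallest within-group SD of the 14 brightest probes, at 0.083. It had 7.87, 7.74 and 7.83 in tBA livers and 7.87, 7.70 and 7.87 in vehicle livers. The difference was −0.0015 (SE 0.093, limma adjusted p = 0.995), and the interval of −0.23 to 0.22 leaves room for a change of less than 1.5-fold either way.

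Some of the genes varied alike from liver to liver. As a description over 6 arrays, on which all probes share the same livers and labelling, the centred profiles of Gsta3 probes 1 and 2 differed by a root mean square of 0.0227. The gap was 0.0400 between Gsta3 probe 2 and Gsta1, and 0.0673 between the 2 Gsta2 probes. Gsta2 probes 1 and 2 lay 0.194 and 0.137 from Gsta5. Small gaps were not limited to genes of 1 class. Mgst1 lay 0.0794 from Gstm4 probe 1 and 0.0953 from Gsta1. The largest gap, 1.19, was between Gsta3 probe 3 and Gstm3 probe 1. By this measure any probes that vary little lie close together. Across the 14 genes, the median level relative to the vehicle mean was 0.12, −0.22 and 0.028 in tBA replicates 1 to 3 and 0.023, −0.010 and 0.024 in the vehicle replicates. Among the tBA livers, tBA replicate 2 was the lowest by this median. The vehicle values lie near 0 in part by construction, since each gene was centred on its vehicle mean.

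Other genes of glutathione metabolism were read from 6 lists, chosen with earlier results of these data known. None of their tested genes passed an adjusted p of 0.05 in limma, and unadjusted counts are given against the background of 7.64% of all genes higher and 7.45% lower. Of 14 other glutathione transferases tested (of 21 listed), 10 were higher and 4 lower, 1 in each direction had an unadjusted p under 0.05, and the median was 0.063. These 2 were Gsto1, an omega class enzyme, with 4.46, 4.76 and 4.63 in tBA livers and 4.30, 4.40 and 4.31 in vehicle livers (difference 0.27, limma adjusted p = 0.301), and Gstm6, with −3.16, −4.27 and −3.09 in tBA livers and −2.77, −2.27 and −2.88 in vehicle livers (difference −0.87, limma adjusted p = 0.310). Gsta6 and Gstp3 gave 0.24 and −0.41, and Gstk1, Gstz1 and Mgst3, of the kappa, zeta and microsomal families, gave 0.073, 0.045 and 0.053.

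Of 14 genes tested for glutathione synthesis and recycling (of 18 listed), 10 were higher and 4 lower, 1 in each direction had an unadjusted p under 0.05, and the median was 0.096. Gss, which makes glutathione in the last step of its synthesis, had 1.70, 1.93 and 1.65 in tBA livers and 2.26, 2.40 and 2.16 in vehicle livers (difference −0.51, SE 0.117, limma adjusted p = 0.197). Gsr, which reduces oxidised glutathione, had −0.32, −0.038 and −0.35 in tBA livers and −0.50, −0.77 and −0.63 in vehicle livers (difference 0.40, SE 0.127, limma adjusted p = 0.261). In both genes the groups did not overlap, as in 12.8% of all genes with tBA higher and 11.3% with tBA lower. Gclc, the catalytic subunit of the first step, gave 0.053 (limma adjusted p = 0.887), and its partner Gclm had too few spots above background to be tested. Idh1 and Me1, which supply NADPH, gave −0.24 and 0.50 (limma adjusted p of 0.344 for each).

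Of 17 genes tested from the list of glutathione-using enzymes (of 19 listed), 12 were higher and 5 lower, and the median was 0.12. Besides such enzymes, the list holds Eef1g, Clic1 and Clic4. Those with an unadjusted p under 0.05 numbered 5, all higher. Every tBA liver lay above every vehicle liver in 7 genes, Eef1g among them, against 12.8% of all genes. In 1 gene, Hagh, every tBA liver lay below every vehicle liver, against 11.3% of all genes (difference −0.21, limma adjusted p = 0.341); Hagh was named after its values were seen, and encodes a hydrolase of the glyoxalase pathway. Esd, an esterase that splits S-formylglutathione, had 6.15, 6.25 and 6.27 in tBA livers and 5.93, 5.89 and 5.91 in vehicle livers (difference 0.32, SE 0.082, limma adjusted p = 0.218). Prdx6, a peroxiredoxin that uses glutathione, had 4.28, 4.51 and 4.52 in tBA livers and 4.09, 4.17 and 4.14 in vehicle livers (difference 0.31, SE 0.100, limma adjusted p = 0.266). The glutaredoxins Glrx3 and Glrx gave 0.22 and 0.56 (limma adjusted p of 0.304 and 0.305).

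Of 13 genes tested for conjugate export and mercapturate formation (of 13 listed), 3 were higher and 10 lower, the median was −0.11, and there was 1 in each direction at an unadjusted p under 0.05. Abcc3, an export pump of the basolateral membrane known to carry conjugates, had −1.52, −0.64 and −0.72 in tBA livers and −2.86, −3.12 and −2.73 in vehicle livers. Every tBA liver lay above every vehicle liver, and the difference of 1.94, or 3.84-fold (SE 0.255, limma adjusted p = 0.0859), missed the threshold. Without tBA replicate 1 it was 2.22 and passed, with a limma adjusted p of 0.0382 (0.0382 to 0.348 over its alternatives). In that fit the tBA and vehicle arrays are on different slides, so treatment and slide cannot be told apart. For tBA replicate 1, on the slide of the vehicle arrays, the Abcc3 difference was 1.38. Anpep, an aminopeptidase that trims the conjugates, gave −0.46 (limma adjusted p = 0.269), and Ggt1, the gamma-glutamyl transferase that starts the trimming, gave 0.0090 (limma adjusted p = 0.991). Abcc2, the export pump of the bile canaliculus, gave −0.26 (limma adjusted p = 0.601), and Nat8 and Abcc6 gave −0.29 and −0.23.

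Of 20 regulators tested (of 22 listed), 14 were higher and 6 lower, the median was 0.12, and 2 were higher and 3 lower at an unadjusted p under 0.05. Jun, a subunit of AP-1, had 1.74, 2.05 and 1.54 in tBA livers and 3.75, 3.38 and 3.21 in vehicle livers. The groups did not overlap, and the difference of −1.67 (SE 0.192, limma adjusted p = 0.0604) missed the threshold; it passed with normexp background correction (adjusted p = 0.0293) and with an intensity trend in the variance (adjusted p = 0.0318), in a range of 0.0293 to 0.348 over its alternatives. Also lower with no overlap were Nr3c1, the glucocorticoid receptor gene, at −0.32 (SE 0.076, limma adjusted p = 0.204; −0.19 with the mean of its probes), and Cebpa, a transcription factor of hepatocyte identity, at −0.57 (SE 0.144, limma adjusted p = 0.216). In 2 regulators every tBA liver lay above every vehicle liver, against 12.8% of all genes. In 3 every tBA liver lay below, against 11.3%. Nr1i3, which encodes CAR, was among the 2 higher, at 0.89 (SE 0.315, limma adjusted p = 0.282). Nfe2l2, which encodes NRF2, gave 0.11 (limma adjusted p = 0.818).

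Of 23 NRF2 targets tested (of 25 listed), 16 were higher and 7 lower, the median was 0.076, and there was 1 in each direction at an unadjusted p under 0.05. Srxn1, which repairs peroxiredoxins, gave 0.57 on the brightest of its 2 probes (limma adjusted p = 0.252) and 0.12 on the other. Hmox1, which degrades haem, gave −0.48 (limma adjusted p = 0.280). Txnrd1, a thioredoxin reductase, gave 0.28 (limma adjusted p = 0.343). Nqo1, a quinone reductase, had 1.87, −0.91 and 1.05 in tBA livers and 1.42, 1.35 and 1.35 in vehicle livers. Its difference was −0.70 (SE 0.666, limma adjusted p = 0.615). The low value was in tBA replicate 2. That liver was also the lowest for Gsta2, Gsta4, Gsta5, Gstm1, Gstm2, Gstm4, Gstm5 and Gstt1 on their brightest probes.

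**Figure D4:**
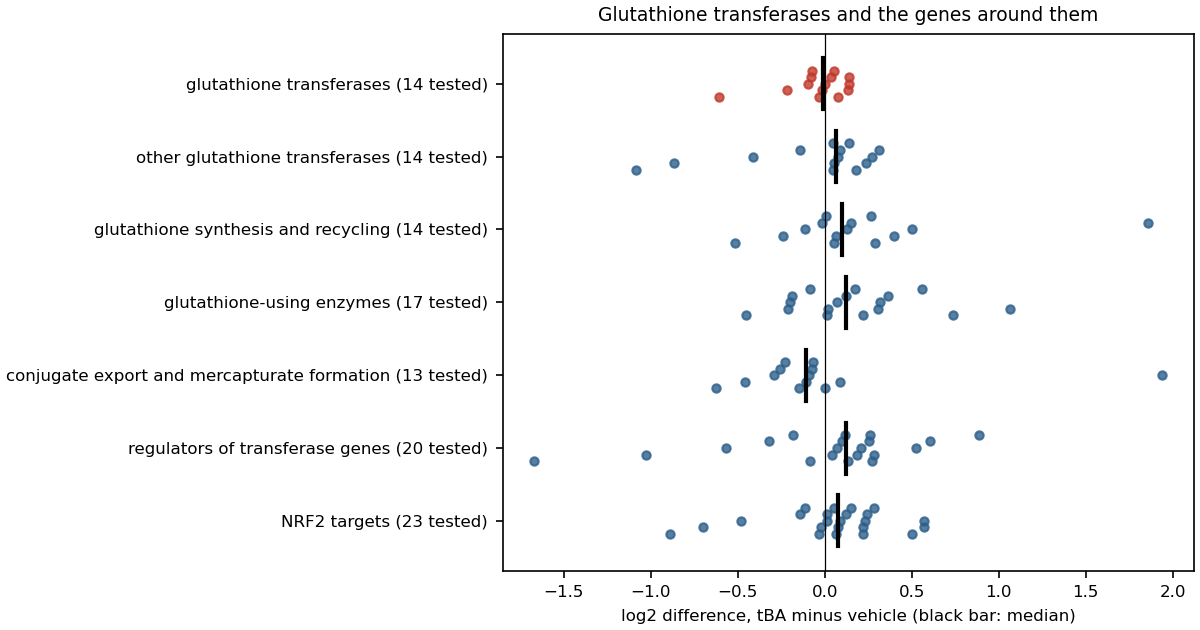
Difference in log2, tBA minus vehicle, of every tested gene of the glutathione transferases (red) and of 6 lists of related genes (blue), 1 point per gene on its brightest probe, with a black bar at the median. Vertical offsets only separate points. The 14 transferases lie between −0.61 and 0.14, and the list medians lie between −0.11 and 0.12.

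Setting slide 2 apart turned or moved the Gsta2, Gsta5 and Gstm3 probes, and the mean of all probes moved Gsta3. None of the 22 probes passed under any alternative run. Gstm3 on its brightest probe stayed below 0 throughout, between −0.86 and −0.089.

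**Figure D5:**
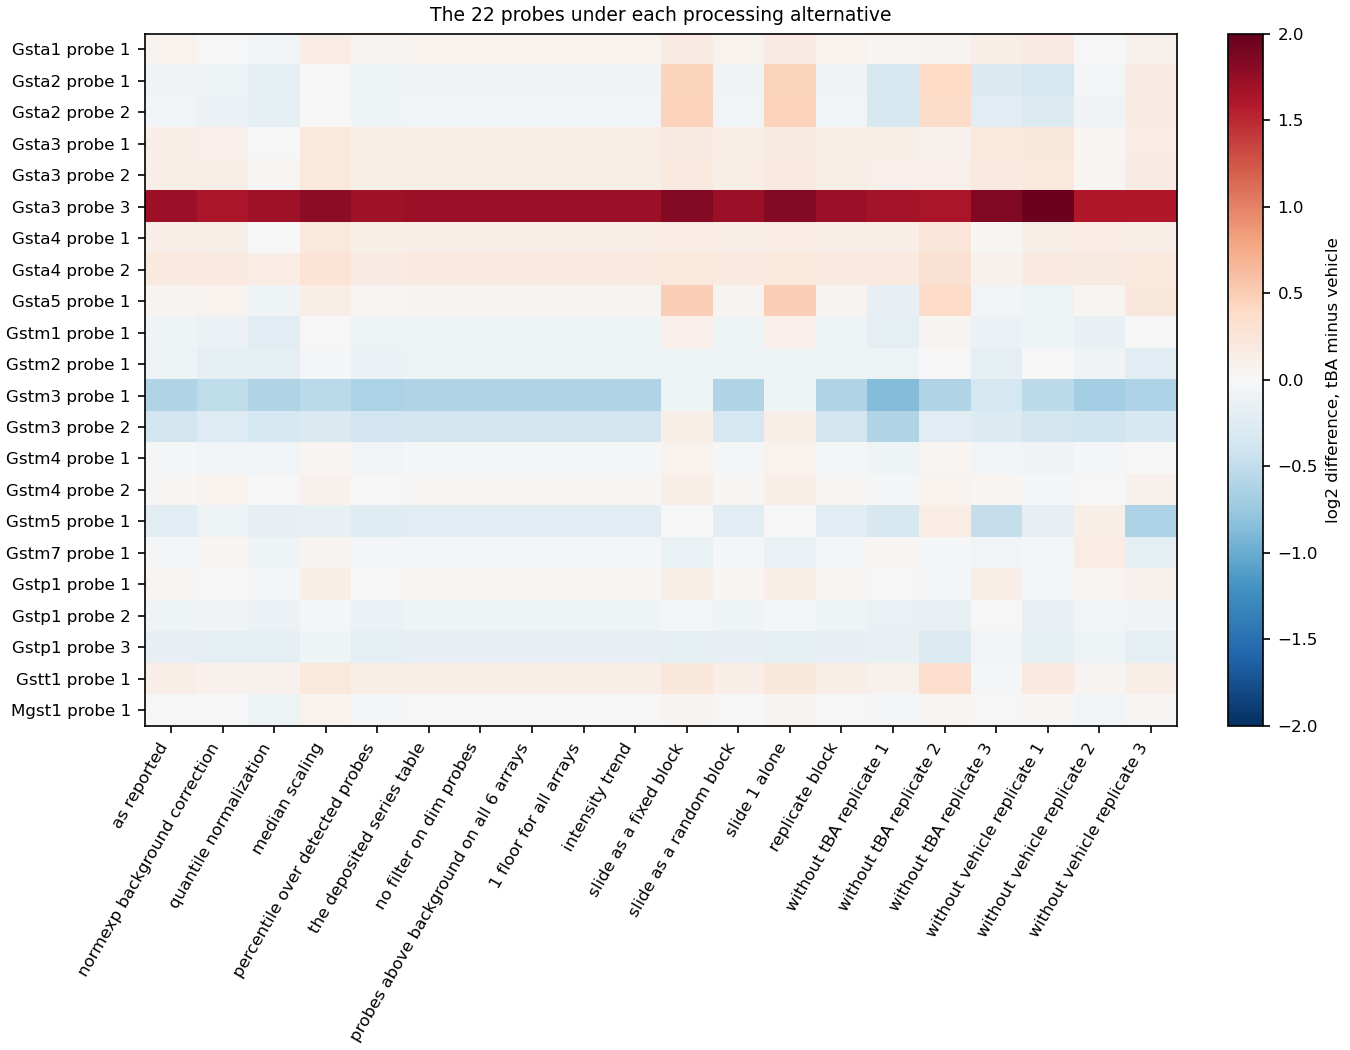
Difference in log2, tBA minus vehicle, of the 22 probes (rows) as reported and under 19 processing alternatives (columns), with red for higher in tBA livers and blue for lower. Gsta3 probe 3 stays between 1.60 and 1.96, and the Gsta2, Gsta5 and Gstm3 probes change colour depth in the columns for slide as a fixed block and slide 1 alone.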

How the data were processed

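RNA of 6 rat livers, 3 tBA and 3 vehicle, was measured with 1 array each. The intensity values are processed signals from the authors' scans, from which Agilent's Feature Extraction had subtracted the local background (version 10.7.1.1 per the file headers, 10.7 in the submitters' processing notes; probe design on build rn4). The deposited series table holds a linear ratio, the processed signal over 1 divisor per array of 570.0 to 639.5, close to its 75th percentile; its column medians of 0.095 to 0.102 show no centring per gene, and it was used as an alternative.

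Control probes and 3 to 16 outlier spots per array were left out, and log2 signals were scaled by each array's 75th percentile. The 37647 probes that were above background (Agilent's well-above flag) on every array of 1 or both groups were tested with limma 3.58.1 in R 4.3.3 (lmFit and eBayes over the 6 arrays, Benjamini-Hochberg adjustment); the code was tested on simulated data. Probes were named through their RefSeq accessions. The number of arrays limits the precision. Intervals are 95% limma intervals.

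The genes and lists were chosen with earlier results of these data known. Genes named from a list are those of lowest p, at most 4 per list, and fixed genes of known role; likeness names the 3 closest genes. The alternatives were background correction, scaling, filter, floor, variance trend, slide, replicate block, probe rule, and leaving out each array.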

Additional observations from a re-analysis of the deposited data

How the results depend on the processing

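No transferase probe passed an adjusted p of 0.05 in limma under any alternative run, where 1 of 22 had an unadjusted p under 0.05 as reported and the lowest adjusted p was 0.0509 (Gsta3 probe 3, adjusted p 0.0509 to 0.420 over its alternatives). Of 424 probe values under alternatives, 50 turned sign, in 14 probes. The count of all probes passing was 43 as reported, 18 with no filter on dim probes, 0 with only probes above background on all 6 arrays (5637 of 35660 at an unadjusted p under 0.05), 65 with 1 floor for all arrays, 68 with an intensity trend, 20 with slide as a fixed block, 0 on slide 1 alone (2955 at an unadjusted p under 0.05), and 7 to 53 with 1 array left out (7 without tBA replicate 2, 14 without tBA replicate 3). With the replicate block it was 6. Same-numbered livers did not vary together (correlations of −0.056, −0.064 and 0.014). This gave no sign that the numbers pair the samples, but with 3 arrays a group it cannot exclude a pairing. The block changed no call of a transferase or list gene. The list count of 0 became 1 with normexp, with an intensity trend and without tBA replicate 1 (0 to 1 with 1 array left out). Without tBA replicate 1, the tBA and vehicle arrays were on different slides. The median of the 14 genes became 0.12 with slide as a fixed block and on slide 1 alone, and ran from −0.059 to 0.056 with 1 array left out.

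Signs also turned as follows, and the cause was not tested. With slide as a fixed block and on slide 1 alone, which give the same value, the differences were 0.44 and 0.46 for the Gsta2 probes, 0.11 for Gstm1, 0.13 for Gstm3 probe 2, 0.070 for Gstm4 probe 1, 0.055 for Mgst1, 0.00037 for Gstm5, 0.014 for Gstp3, 0.50 for Nqo1, 0.20 for Abcc2, −0.23 for Gstk1, −0.012 for Gstz1 and 0.0083 for Ezh2. With median scaling, which moved the median of all genes to 0.076, they were 0.0015 and 0.015 for the Gsta2 probes, 0.038 for Gstm4 probe 1, 0.072 for Mgst1 and 0.055 for Gstm7. With quantile normalization they were −0.0099 for Gstm4 probe 2, −0.017 for Gstp1 probe 1, −0.049 for Gsta1, −0.079 for Gsta5, −0.0027 for Gclc, −0.0038 for Gstk1, −0.076 for Gstz1 and −0.072 for Mgst3. With the percentile over detected probes they were −0.0051 for Gstm4 probe 2 and −0.014 for Ggt1, with normexp 0.033 for Gstm7 and −0.0063 for Mgst3, and with the mean of all probes −0.072 for Gstp1. With 1 array left out in turn, the difference ran from below to above 0 for Gsta2 probe 1 (−0.33 to 0.40), Gsta2 probe 2 (−0.32 to 0.37), Gstm1 (−0.18 to 0.048), Gstm4 probe 1 (−0.087 to 0.036), Gstm4 probe 2 (−0.042 to 0.080), Gstp1 probe 1 (−0.018 to 0.14), Gstp1 probe 2 (−0.15 to 0.0037), Gstt1 (−0.044 to 0.35), Mgst1 (−0.058 to 0.034), Gsta1 (−0.012 to 0.16), Gsta5 (−0.16 to 0.38), Gstm5 (−0.62 to 0.15) and Gstm7 (−0.19 to 0.16). The same held for Gclc (−0.077 to 0.16), Ggt1 (−0.19 to 0.27), Nqo1 (−1.30 to 0.088), Nfe2l2 (−0.057 to 0.36), Gstk1 (−0.047 to 0.22), Gstz1 (−0.0077 to 0.074) and Mgst3 (−0.029 to 0.16). Gclm, above background on 1 tBA array, could not be tested.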
